A study of Mus musculus with 188 samples.

Results

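The 10 genes described here encode glutathione S-transferases: the alpha-class genes Gsta3 and Gsta4, the mu-class genes Gstm1, Gstm2, Gstm5 and Gstm7, the pi-class gene Gstp1, the theta-class gene Gstt1, and the membrane-bound Mgst1 and Mgst2. They were found by matching Ensembl identifiers to these symbols, and all 10 were listed in every library, among 25655 genes in batch 1 and 25528 in batches 2 and 3. Their identifiers are ENSMUSG00000025934 (Gsta3, chromosome 1), ENSMUSG00000032348 (Gsta4, chromosome 9), ENSMUSG00000058135 (Gstm1), ENSMUSG00000040562 (Gstm2), ENSMUSG00000004032 (Gstm5) and ENSMUSG00000004035 (Gstm7), all on chromosome 3, ENSMUSG00000060803 (Gstp1, chromosome 19), ENSMUSG00000001663 (Gstt1, chromosome 10), ENSMUSG00000008540 (Mgst1, chromosome 6) and ENSMUSG00000074604 (Mgst2, chromosome 3). All 10 passed the filter on low counts in both sets of libraries. The cultures were brain slice cultures (BSCs), coronal slices of 150 μm from adult C57BL/6J mice of both sexes aged 6 to 8 weeks, with 2 slices on each insert. From culture day 7 they received human blood products in serum-free medium or vehicle only, and bulk mRNA was sequenced in 188 libraries, 167 of which had an unambiguous condition.

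In batch 1, 60 libraries covered 24 h of vehicle (control), of heme-albumin (heme bound to human albumin) at 12.5, 50, 200 or 400 μM, or of 200 μM hemeHpx (heme bound to hemopexin, the plasma heme scavenger), with 10 libraries each. The hemeHpx titles name haptoglobin, and the treatment tags, which were followed, name hemopexin. In batches 2 and 3 the assigned libraries covered control at 24 h (10) and 48 h (9), hemoglobin (Hb) at 200 μM (10 at each time) and 400 μM (10 at each time), the hemoglobin-haptoglobin complex (HbHp) at 200 μM (8 at each time) and 400 μM (4 at 24 h, 5 at 48 h), and haptoglobin (Hp) alone at 400 μM (12 at 24 h, 11 at 48 h). Haptoglobin is the plasma protein that binds free hemoglobin. Adult slices in culture lose part of their microglia and have no blood flow, which limits them as a model of bleeding. Nothing in the labels says whether libraries of 1 condition came from separate animals, and some codes in the library names recur within a condition. The p-values therefore measure the spread between these libraries, which may in part be technical.

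Glutathione S-transferases join the tripeptide glutathione to electrophiles such as the lipid aldehydes that form when membranes are oxidized, and the conjugates are then exported and broken down. The cytosolic alpha, mu, pi and theta classes differ in the substrates they prefer, whereas the microsomal enzymes sit in membranes, where they also reduce lipid hydroperoxides. Several members carry antioxidant response elements and are known targets of NRF2 (encoded by Nfe2l2), a transcription factor released from its inhibitor KEAP1 by electrophiles. In brain, Gstm1 is known mostly from astrocytes.

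The promoters of 4 members are printed because 3 of them (Gsta3, Gstm1 and Mgst2) belong to the genes that changed most often, whereas Gstm5 changed in no treatment. Each window runs from 250 bases before to 50 bases after an annotated start, is read 5′ to 3′ on the gene's strand, and comes from RefSeq on GRCm38.p6, a mouse build older than the one named in the submitters' processing notes (GRCm39). Capitals mark a match to the core of the antioxidant response element, TGACNNNGC, searched on both strands. The windows are Gsta3 at chr1:21240335-21240634 (plus strand), Gstm1 at chr3:108017769-108018068 (minus strand), Mgst2 at chr3:51660929-51661228 (plus strand) and Gstm5 at chr3:107895604-107895903 (plus strand).
Gsta3: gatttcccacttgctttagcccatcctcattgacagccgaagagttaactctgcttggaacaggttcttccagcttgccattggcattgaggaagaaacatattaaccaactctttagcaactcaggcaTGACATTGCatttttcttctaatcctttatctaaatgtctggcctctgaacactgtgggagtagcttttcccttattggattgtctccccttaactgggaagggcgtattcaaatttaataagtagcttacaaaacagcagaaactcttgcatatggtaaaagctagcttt
Gstm1: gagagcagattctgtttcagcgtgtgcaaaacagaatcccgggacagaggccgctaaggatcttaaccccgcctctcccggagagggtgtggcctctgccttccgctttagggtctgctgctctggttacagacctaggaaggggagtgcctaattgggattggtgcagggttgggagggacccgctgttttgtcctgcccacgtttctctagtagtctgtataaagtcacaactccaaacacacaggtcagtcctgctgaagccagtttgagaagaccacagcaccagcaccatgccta
Mgst2: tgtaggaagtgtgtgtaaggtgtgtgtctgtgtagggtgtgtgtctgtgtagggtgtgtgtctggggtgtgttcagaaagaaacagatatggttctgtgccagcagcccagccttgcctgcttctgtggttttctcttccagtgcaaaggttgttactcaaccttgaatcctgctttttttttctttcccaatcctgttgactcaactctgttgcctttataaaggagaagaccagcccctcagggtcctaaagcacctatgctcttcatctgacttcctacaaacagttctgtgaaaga
Gstm5: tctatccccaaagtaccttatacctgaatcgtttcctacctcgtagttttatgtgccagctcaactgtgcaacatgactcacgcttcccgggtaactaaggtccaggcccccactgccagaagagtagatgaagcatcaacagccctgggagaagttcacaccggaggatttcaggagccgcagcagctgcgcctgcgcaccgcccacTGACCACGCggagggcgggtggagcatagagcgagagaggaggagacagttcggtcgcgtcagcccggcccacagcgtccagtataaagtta

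The core was found in the Gsta3 window, 121 bases before the start, and in the Gstm5 window, 42 bases before it. The Gstm1 and Mgst2 windows held none of these letters. Of the 12 windows available for 9 members, 4 held the core (1 each of Gsta3, Gstm5, Gstm7 and Mgst1), and the Mgst1 match lay on the opposite strand. No window of Gsta4 was in the RefSeq table used here. Among all 32851 windows of 300 bases in that table, 12.4% held the core. Of these 4 members, Gsta3 was called in 11 and Mgst1 in 3 of the 15 comparisons of a treatment with control described below, and Gstm5 and Gstm7 in none.

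Levels are counts per 1000000 (CPM), on library sizes adjusted by the trimmed mean of M values (TMM), and changes are log2 fold changes with their standard error (SE) from edgeR's quasi-likelihood test, called at an adjusted p (Benjamini-Hochberg over all genes tested) under 0.05. In batch 1, 15554 genes were tested, and in batches 2 and 3, 16473. Total counts ran from 11038484 to 44199060 in batch 1, from 32626873 to 54174784 in batch 2 and from 15587938 to 38839614 in batch 3. Markers of neurons (8), astrocytes (8) and oligodendrocytes (7) were above 0 in all libraries. All HbHp libraries were of batch 3 and of the library-name prefix E2, of which only 3 of the 24 h controls and 2 of the 48 h controls were a part, and the fits carried batch and prefix as terms. Library-name prefixes E1 and E2 split the Hp libraries into groups that responded differently, and HbHp 200 μM replicate 1 of 48 h stood apart in 4 members. Results that rest on the Hp libraries are given both ways, and HbHp 200 μM against control at 48 h was also fitted without replicate 1. The comparisons of HbHp with Hb at 48 h and of HbHp between the times kept that library. In bulk RNA, fewer cells of a type and less RNA per cell cannot be told apart.

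Reads of similar genes could mix in 3 members. Sharing was counted over stretches of 100 and of 50 bases of the annotated exons, since the read length is not given in the sources used here. In Gstp1, 25.1% of the 100-base stretches also occurred in Gstp2 (33.7% of the 50-base ones), so its counts are uncertain to that extent. In Gstm1 the shares were 5.86% and 18.9% (mostly Gstm2-ps1 at 50 bases), and in Gstm2 0.36% and 5.65% (mostly Gm12499). The other 7 members shared no 100-base stretch and at most 0.53% of 50-base ones. Gstm5 overlapped exons of 4933431E20Rik on the opposite strand, and whether the counting used strand is not given in the sources used here.

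**Figure D1:**
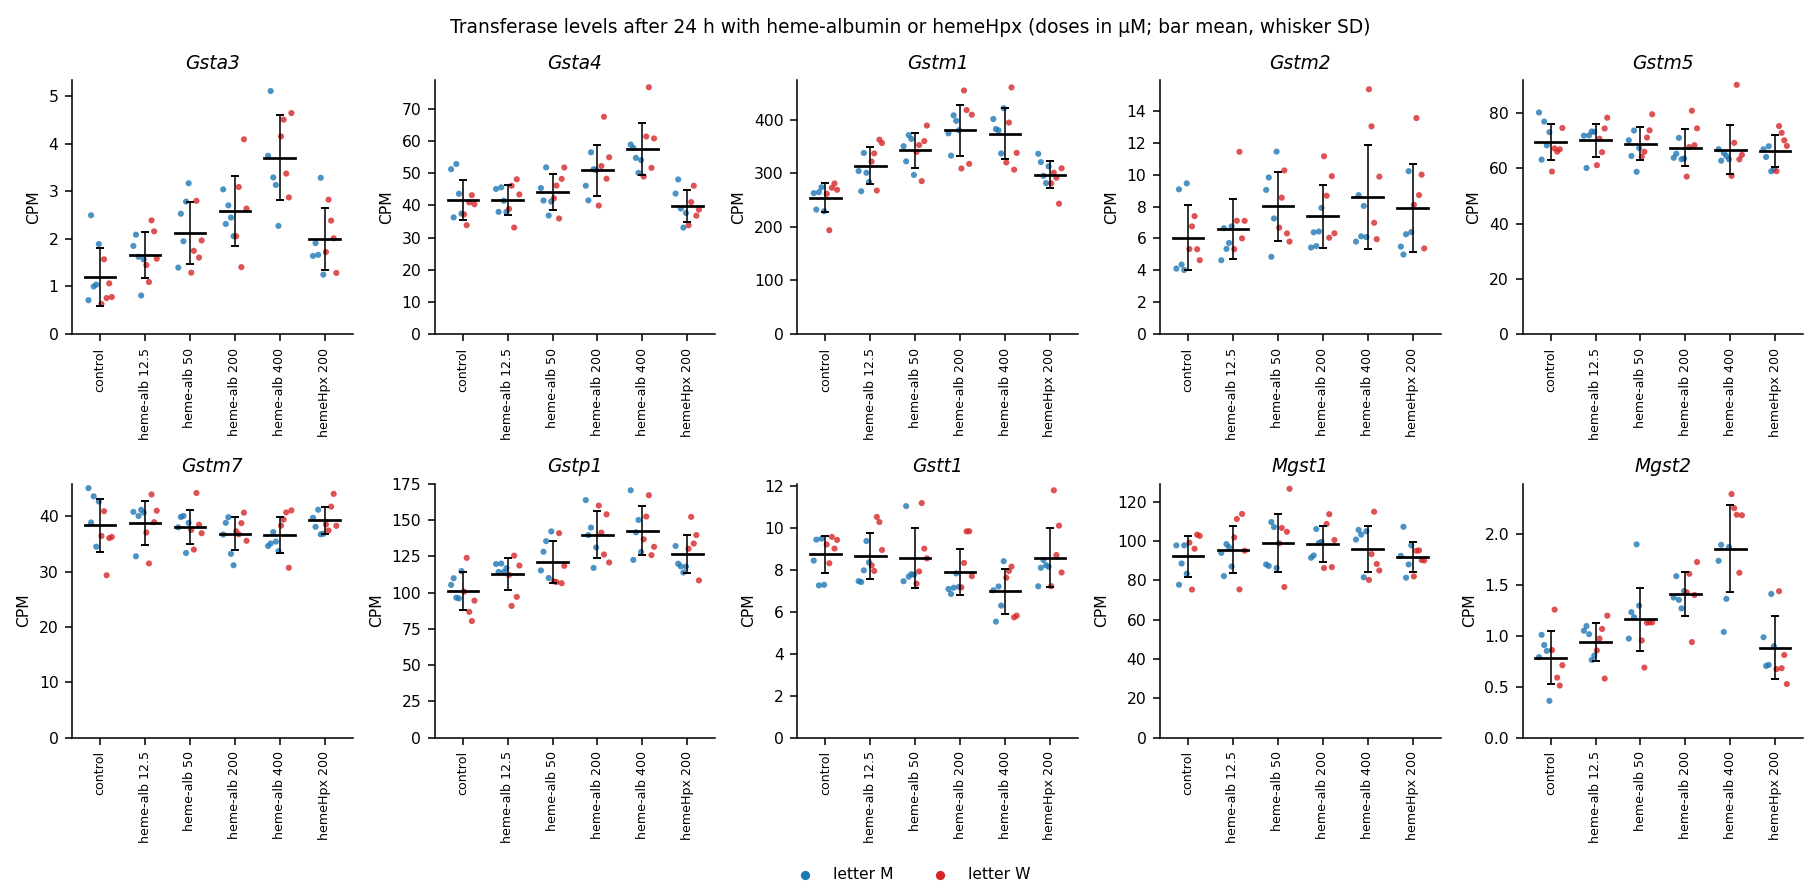
CPM of each of the 10 transferases in the 60 libraries of batch 1 (24 h; doses in μM; 10 libraries per condition), with points coloured by the letter of the library name, bars for means and whiskers for SD. Gstm1 at 50, 200 and 400 μM heme-albumin lay above every control, the means of Gsta3 and Mgst2 were higher at each step of the heme-albumin dose, and Gstm5 and Gstm7 overlapped with control throughout.

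Transcript abundance was compared between members only per kilobase of the longest annotated transcript. In the 10 controls of batch 1, Gstm1 had the highest mean (197 CPM per kb) and Gstp1 followed (123 CPM per kb), with ranges that overlapped. Mgst1 (78.97 CPM per kb) and Gstm5 (64.2) formed the next pair with overlapping ranges, then came Gsta4 (42.7) and Gstm7 (27.9). Gstt1 (7.93 CPM per kb) and Gstm2 (5.69) were far lower and overlapped, and Gsta3 (0.428) and Mgst2 (0.280) were lowest and overlapped. Within libraries the higher of each of these pairs was above in 9 (Gstm1), 10 (Mgst1), 9 (Gstt1) and 8 (Gsta3) of 10.

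In the 24 h controls of batches 2 and 3, Gstp1 came first (328 CPM per kb) and Gstm1 second (132 CPM per kb), without overlap. Ranges over libraries overlapped between neighbours for Mgst1 (53.1 CPM per kb) and Gstm5 (52.9), with Mgst1 above Gstm5 within 4 of 10 libraries, and for Gstm7 (35.7) and Gsta4 (32.6), with Gstm7 above within 7 of 10. They also overlapped for Gstt1 (7.83) and Gstm2 (5.57) and for Gsta3 (0.645) and Mgst2 (0.265), but within libraries Gstt1 was above Gstm2 in 9 of 10 and Gsta3 above Mgst2 in 10 of 10. The low members rested on few reads: Gsta3 had 9 to 47 reads per control library in batch 1 and Mgst2 4 to 21, against 26 to 154 and 14 to 63 in batches 2 and 3.

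Heme-albumin was compared with control to ask how the BSCs responded to increasing heme carried by albumin, which holds it less tightly than hemopexin does. The number of members called grew with dose: 0 at 12.5 μM, 1 at 50 μM, 5 at 200 μM and 7 at 400 μM. All were higher except Gstt1, which was lower at 400 μM. Of all genes tested, 0.045% were called at 12.5 μM, 0.463% at 50 μM, 13.6% at 200 μM and 29% at 400 μM. The median log2 fold change of the members was 0.09, 0.19, 0.29 and 0.48 at the 4 doses, and that of all genes lay between -0.01 and 0. At 12.5 μM, where edgeR called no member and DESeq2 called 1, 3 members and 1226 of the 15554 genes tested had an unadjusted p under 0.05.

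Among the alpha-class genes, Gsta3 changed most on the log2 scale. Control libraries held 0.633 CPM at the lowest, 1.02 at the median and 2.50 at the highest, and at 400 μM these values were 2.27, 3.56 and 5.11. All 10 libraries at 400 μM were above the control median and 9 were above the highest control. The log2 fold change was 0.495 ± 0.218 (SE) at 12.5 μM (adjusted p = 0.614) and 0.84 ± 0.22 at 50 μM (adjusted p = 0.0584). It reached 1.12 ± 0.22 at 200 μM (adjusted p = 0.000188) and 1.65 ± 0.21 at 400 μM (adjusted p = 1.48e-08, 3.14-fold).

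Gsta4, which conjugates the lipid peroxidation product 4-hydroxynonenal, had 33.9, 40.7 and 52.9 CPM as lowest, median and highest control value. At 400 μM these were 49, 56.4 and 76.8 CPM, with 7 of 10 libraries above the highest control. Gsta4 rose by 0.29 ± 0.09 at 200 μM (log2, adjusted p = 0.0161) and by 0.47 ± 0.09 at 400 μM (adjusted p = 2.33e-05).

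Of the mu class, Gstm1 was the first member to change as the dose grew. Its controls ran from 193.7 to 280.9 CPM (median 263.8), and libraries of 50 μM ran from 285.3 to 389.0 (median 351.5), those of 200 μM from 308.9 to 454.4 (median 389.0) and those of 400 μM from 306.7 to 460.1 (median 381.2). The ranges at these 3 doses did not overlap with control. The log2 fold change was 0.43 ± 0.07 at 50 μM (adjusted p = 0.00011), 0.58 ± 0.07 at 200 μM (adjusted p = 2.99e-08) and 0.56 ± 0.07 at 400 μM (adjusted p = 1.48e-08). At 12.5 μM it was 0.30 ± 0.07 (adjusted p = 0.115). Values at 200 and 400 μM were thus near each other, in contrast to those of Gsta3.

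Gstm2 was called at 400 μM only, with 4.02, 5.33 and 9.46 CPM in controls (lowest, median, highest) and 5.80, 7.51 and 15.4 CPM at that dose. The ranges overlapped, and the log2 fold change was 0.52 ± 0.19 (adjusted p = 0.0366). Gstm5 and Gstm7 were called at no dose. Gstm5 had a median of 67.8 CPM in controls and 64.7 at 400 μM, and Gstm7 37.7 and 36.3.

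The pi-class gene Gstp1, which also binds stress kinases, ran from 80.4 to 124 CPM in controls (median 98.6) and from 122.6 to 170.7 at 400 μM (median 139.2). It rose by 0.47 ± 0.07 at 200 μM (log2, adjusted p = 4.45e-06) and by 0.50 ± 0.07 at 400 μM (adjusted p = 2.67e-07). The theta-class gene Gstt1, which acts on small halogenated substrates, fell at 400 μM by 0.33 ± 0.09 (adjusted p = 0.00436). Its controls ran from 7.27 to 9.59 CPM (median 9.13) and the 400 μM libraries from 5.54 to 8.43 (median 7.13), with overlap.

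Of the microsomal genes, Mgst2, which can also form leukotriene C4, rose and Mgst1, a broad detoxifying enzyme, was called at no dose. Mgst2 controls ran from 0.360 to 1.26 CPM (median 0.821), 200 μM libraries from 0.938 to 1.73 (median 1.41) and 400 μM libraries from 1.04 to 2.39 (median 1.88). At both doses 9 of 10 libraries were above the highest control. The log2 fold changes were 0.85 ± 0.18 at 200 μM (adjusted p = 0.000521) and 1.23 ± 0.18 at 400 μM (adjusted p = 1.21e-07). Mgst1 had a median of 96.9 CPM in controls and 97.0 at 400 μM.

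Cell markers moved at the same doses. Of the 7 microglial markers, 6 were lower at 200 μM and 3 at 400 μM, and their summed level ran from 425.7 to 1799 CPM in controls, from 309 to 782.2 at 200 μM and from 310.2 to 1025 at 400 μM, with none of these markers missing. Of the 8 astrocytic markers, 4 and 5 were lower, with sums from 8144 to 12440 CPM in controls, from 6755 to 11340 at 200 μM and from 5796 to 9895 at 400 μM. At these doses 2 of 5 border macrophage and 1 of 6 endothelial markers were also lower, and at 400 μM 1 ependymal marker was lower and 1 neuronal marker higher. No choroid plexus marker was called, with sums from 3.09 to 3470 CPM in controls. The part of these cell types in the changes of the transferases was not tested.

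The hemeHpx libraries addressed what remained of the response when heme was bound by hemopexin. Against control, 3 members were called, all higher, where 8.2% of all genes tested were called. Gstm1 ran from 243.2 to 336.3 CPM with hemeHpx (median 298.1) and overlapped with control, with a log2 fold change of 0.23 ± 0.07 (adjusted p = 0.045). Gsta3 ran from 1.25 to 3.29 CPM (median 1.82) and rose by 0.75 ± 0.22 (adjusted p = 0.0374). Gstp1 ran from 108.4 to 152.3 CPM (median 125.1) and rose by 0.33 ± 0.07 (adjusted p = 0.0145). The 3 calls did not survive a correction for GC content and transcript length, under which Gsta3 was at 0.87 (adjusted p = 0.0505), Gstm1 at 0.18 (adjusted p = 0.161) and Gstp1 at 0.16 (adjusted p = 0.282).

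Against heme-albumin at the same 200 μM, hemeHpx was lower in 3 of the 10 members and higher in none. Of all genes tested, 25.9% were called, so the count of members was near the share over all genes. Mgst2 was at 0.5258, 0.763 and 1.44 CPM (lowest, median, highest), below heme-albumin by a log2 difference of -0.67 ± 0.17 (adjusted p = 0.00331). Gsta4 was at 33.1, 38.9 and 48.1 CPM and differed by -0.36 ± 0.09 (adjusted p = 0.00219). Gstm1 differed by -0.36 ± 0.07 (adjusted p = 0.000388). Ranges of the pair of treatments overlapped in each of the 3 genes. For Gsta3 the difference was -0.37 ± 0.20 (adjusted p = 0.161) and did not pass. The other 6 members differed by -0.14 to 0.12 and did not pass. Between these treatments 6 of 7 microglial, 4 of 8 astrocytic, 4 of 7 oligodendrocytic, 3 of 5 border macrophage and 2 of 6 endothelial markers and 1 each of choroid plexus and ependymal cells were higher with hemeHpx, and the part of cell composition was not tested.

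**Figure D2:**
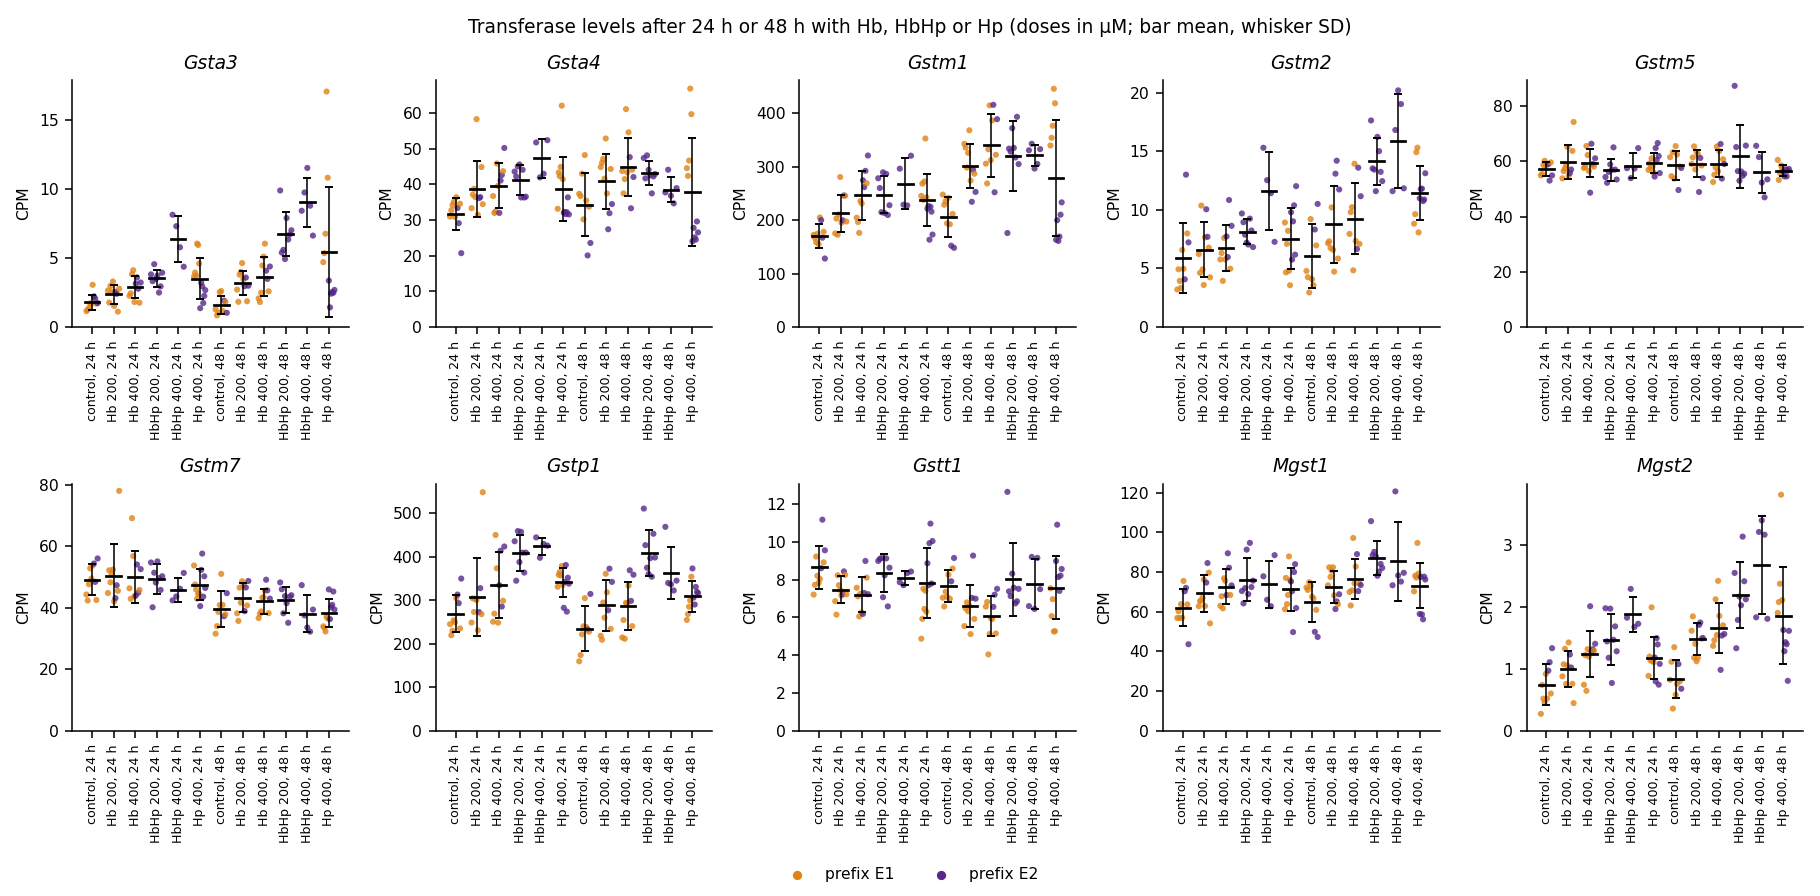
CPM of each of the 10 transferases in the libraries of batches 2 and 3 by treatment, dose (μM) and time, with points marking the library-name prefix, bars for means and whiskers for SD. Gsta3 was at 4.38 to 8.15 CPM with 400 μM HbHp at 24 h and at 6.64 to 11.5 at 48 h, above every control library of its time.

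With free Hb few members passed the adjusted threshold, and few of all genes did. At 24 h edgeR and DESeq2 called none at 200 μM, where edgeR called 0.0971% of all genes. There 3 members and 516 of the 16473 genes tested had an unadjusted p under 0.05. At 400 μM and 24 h, 1 member was called, with 0.522% of all genes, and 7 members and 1141 genes had an unadjusted p under 0.05. At 48 h the counts were 2 at 200 μM (0.31% of all genes) and 4 at 400 μM (0.601% of all genes), all higher. There 7 members and 784 genes at 200 μM, and 8 members and 1164 genes at 400 μM, had an unadjusted p under 0.05. The median log2 fold change of the members was 0.22 and 0.28 at 24 h and 0.30 and 0.37 at 48 h, against 0.01 or less for all genes.

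Gstm1 was the member called with 400 μM Hb at both times. At 48 h its controls ran from 148.3 to 247.9 CPM (median 211.7) and the Hb libraries from 252.3 to 416.0 (median 327.6), with no overlap. The log2 fold change was 0.58 at 24 h (adjusted p = 0.005) and 0.77 at 48 h (adjusted p = 5.52e-05). Gsta3 went from 0.846 to 2.61 CPM in 48 h controls (median 1.27) to between 1.81 and 6.05 with 400 μM Hb (median 3.79), a rise of 1.25 ± 0.26 (adjusted p = 0.00238). With 200 μM Hb at 48 h, Gsta3 rose by 1.04 ± 0.26 (adjusted p = 0.0409) and Gstm1 by 0.58 ± 0.13 (adjusted p = 0.0122). These 2 calls of 200 μM were both lost with batch as the only term, with neither batch nor prefix, and within prefix E2, and 1 was left with no filter or within E1. Mgst2 rose by 0.98 ± 0.21 with 400 μM Hb at 48 h (adjusted p = 0.00475) and Gsta4 by 0.45 (adjusted p = 0.0253). Gstt1 differed by -0.35 ± 0.09 there (adjusted p = 0.0514).

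HbHp was compared with the same controls as Hb. At 24 h, 5 members rose with 200 μM (1.93% of all genes called) and 4 with 400 μM (5.15% of all genes). At 48 h, 7 rose with 200 μM and 6 with 400 μM, and 11.9% of all genes were called at either dose. None fell. The median log2 fold change of the members was 0.41 and 0.50 at 24 h and 0.62 and 0.53 at 48 h, against -0.01 to 0 for all genes. At 400 μM, libraries of 5 members did not overlap with control at either time. These ranges are CPM without the batch and prefix terms, and prefix itself separated 68% of all genes. The share of all genes without overlap was not computed, so the count is a description only.

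Gsta3 changed most on the log2 scale in each of these 4 comparisons. At 24 h, controls ran from 1.16 to 3.07 CPM (median 1.71), HbHp 200 μM from 2.50 to 4.56 (median 3.61), and the 4 HbHp 400 μM libraries were at 8.15, 7.32, 5.79 and 4.38 CPM. At 48 h, HbHp 200 μM ran from 4.93 to 9.91 CPM (median 6.53) and the 5 libraries of 400 μM were at 8.44, 9.76, 11.5, 8.80 and 6.64. All but the 200 μM group of 24 h stood above every control of their time.

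The log2 fold changes of Gsta3 were 1.34 ± 0.31 (adjusted p = 0.00723) and 2.18 ± 0.35 (adjusted p = 6.45e-06) at 24 h for 200 and 400 μM. They were 2.48 ± 0.32 (adjusted p = 1.26e-08, 5.57-fold) and 2.91 ± 0.35 (adjusted p = 2.82e-10, 7.50-fold) at 48 h. Gsta4 rose by 0.66 ± 0.14 (200 μM, adjusted p = 0.00224) and 0.85 ± 0.16 (400 μM, adjusted p = 0.000152) at 24 h. The 4 libraries of 400 μM were at 51.75, 41.96, 42.97 and 52.39 CPM, all above the highest 24 h control of 36.4. At 48 h it rose by 0.66 ± 0.14 (adjusted p = 0.000628) and 0.50 ± 0.16 (adjusted p = 0.0232), with ranges that overlapped with control.

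Gstm1 at 24 h ran from 128.3 to 205.1 CPM in controls (median 169.9) and from 209.8 to 289.7 with 200 μM HbHp (median 244.1), and was at 296.5, 229.0, 227.7 and 320.7 CPM with 400 μM. Neither dose overlapped with control. The log2 fold changes were 0.70 ± 0.16 (adjusted p = 0.00477) and 0.81 ± 0.18 (adjusted p = 0.00209). At 48 h, the 5 libraries of 400 μM were at 330.9, 343.1, 296.7, 305.3 and 333.1 CPM, above every control, with a change of 0.83 ± 0.18 (adjusted p = 0.000402). With 200 μM at 48 h the change was 0.82 ± 0.16 (adjusted p = 0.000193), and 7 of 8 libraries were above every control. The exception was replicate 1, at 176.0 CPM, without which the change was 0.90 (adjusted p = 4.66e-05). Leaving that library out gave 8 called members in place of 7, the added one being Gstt1, lower by 0.35 on the log2 scale (adjusted p = 0.0329).

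Gstm2 was called at 48 h only, without overlap at either dose. Its controls ran from 2.95 to 10.5 CPM (median 4.79), 200 μM libraries from 11.6 to 17.6 (median 13.5), and the 5 libraries of 400 μM were at 11.6, 16.8, 20.2, 19.04 and 11.84 CPM. The log2 fold changes were 0.81 ± 0.23 (adjusted p = 0.0134) and 0.98 ± 0.26 (adjusted p = 0.00465). The fit takes into account that Gstm2 was higher in prefix E2 libraries, so these changes were smaller than the CPM values alone would give. Gstm5 and Gstm7 were not called.

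Gstp1 ran from 159.2 to 314.1 CPM in 48 h controls (median 232.4) and from 353.7 to 510.4 with 200 μM HbHp (median 397.1), without overlap, and rose by 0.55 ± 0.13 (adjusted p = 0.00262). In the other 3 comparisons of HbHp with control its change was 0.37 to 0.42 and did not pass. At 400 μM its libraries were above every control at both times, but the fit gave adjusted p = 0.0954 at 24 h and 0.0715 at 48 h. Gstt1 was below control on average in all 4 comparisons (log2 fold changes from -0.35 to -0.21) and passed in none.

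Mgst2 was at 1.83, 2.29, 1.68 and 1.73 CPM in the 4 libraries of 400 μM HbHp at 24 h, against 0.270 to 1.33 in controls (median 0.669). At 48 h the 5 libraries of 400 μM were at 1.83, 3.22, 3.41, 3.17 and 1.81 CPM, against 0.355 to 1.35 in controls (median 0.798). Neither group overlapped with its controls. The log2 fold changes were 1.36 ± 0.30 at 24 h (adjusted p = 0.00147) and 1.68 ± 0.29 at 48 h (adjusted p = 1.13e-05) for 400 μM. For 200 μM they were 1.02 ± 0.26 (adjusted p = 0.0171) and 1.38 ± 0.27 (adjusted p = 0.000146).

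Mgst1 also rose, which it had not done with heme-albumin, although the 2 sets of libraries were not compared by a test. With 200 μM HbHp it rose by 0.46 ± 0.11 at 24 h (adjusted p = 0.014) and by 0.58 ± 0.12 at 48 h (adjusted p = 0.000272), and with 400 μM by 0.55 ± 0.13 at 48 h (adjusted p = 0.00127). At 48 h its controls ran from 47.3 to 74.9 CPM (median 67.6) and the 200 μM libraries from 78.1 to 106 (median 86.01), without overlap. The call at 24 h was lost without control replicate 11, at 0.38 (adjusted p = 0.114), and this left 4 members called.

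Only prefix E2 libraries were common to HbHp and a part of the controls, so the comparisons were repeated within E2 alone, with 3 controls at 24 h and 2 at 48 h. At 24 h, 1 member was then called with 200 μM (Gsta4, 0.50, adjusted p = 0.049), and Gsta3 was at 0.91 (adjusted p = 0.0786) and Gstm1 at 0.59 (adjusted p = 0.123). With 400 μM at 24 h, Gsta3 (1.75, adjusted p = 0.00018) and Gsta4 (0.69, adjusted p = 0.0041) were called. At 48 h, 5 members were called at either dose, among them Gsta3 at 2.26 (adjusted p = 6.96e-06) and Gstm1 at 1.10 (adjusted p = 0.00132) for 200 μM.

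Marker lists were read beside the HbHp results. None of the markers of the 9 cell type lists was called at 24 h. At 48 h, 1 of 8 astrocytic markers was lower and 1 of 5 border macrophage markers higher with 200 μM. With 400 μM, 2 of 8 astrocytic markers and 1 each of the microglial, oligodendrocytic, fibroblast and ependymal markers were lower and 1 border macrophage marker was higher, and the astrocytic sum ran from 4727 to 7188 CPM against 6145 to 10890 in controls. No choroid plexus marker was called, but their sums varied widely within groups, from 3.37 to 411 CPM in 48 h controls (median 5.53), from 5.23 to 1783 with 200 μM (median 552) and from 11.6 to 1056 with 400 μM (median 250). The part of cell composition in these changes was not tested.

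**Figure D3:**
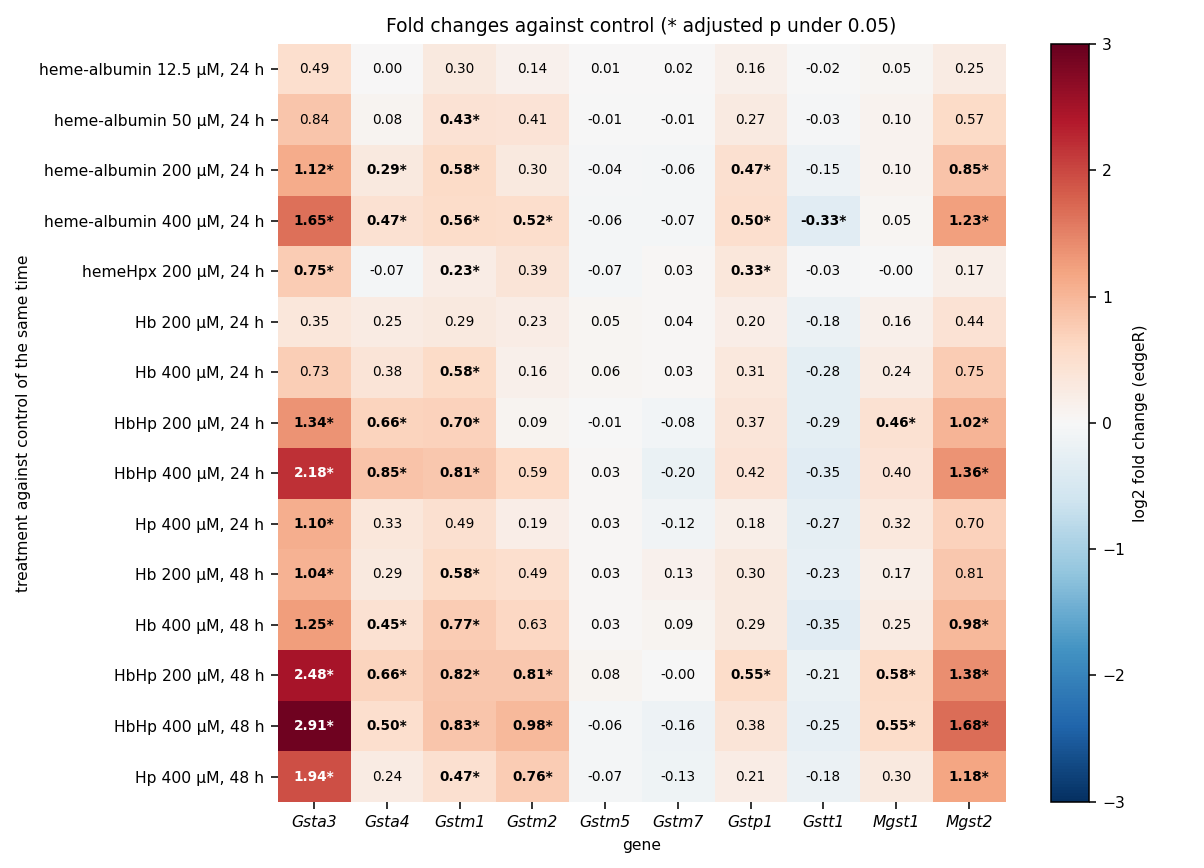
Log2 fold changes of the 10 transferases (columns) for each treatment against the control of its time (rows), as colour and number, with an asterisk and bold type where the adjusted p was under 0.05. Gstm1 was called in 12 and Gsta3 in 11 of the 15 comparisons of a treatment with control, and Gstm5 and Gstm7 in none.

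HbHp and Hb were compared directly at 200 μM to ask what haptoglobin adds to hemoglobin. At 24 h no member was called by edgeR or DESeq2, and edgeR called 0.607% of all genes. There 5 members and 2022 of the 16473 genes tested had an unadjusted p under 0.05. At 48 h, 2 members were higher with HbHp, where 4.98% of all genes were called. Gsta3 differed by 1.44 ± 0.31 (adjusted p = 0.00235, 2.71-fold) and Mgst1 by 0.41 ± 0.11 (adjusted p = 0.0186). The HbHp group held replicate 1, which stood apart as the highest for Mgst1 (105.7 CPM, nearest 90.21). This comparison was not refitted without it. DESeq2 called 1 member at 48 h. Gstm1 differed by 0.40 at 24 h (adjusted p = 0.225) and by 0.24 at 48 h (adjusted p = 0.421). The other 7 members differed by -0.13 to 0.57 at 48 h and did not pass.

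The effect of 200 μM was also compared between the times, each against its own control. For HbHp no member was called by edgeR or DESeq2 (2 members and 1685 genes at an unadjusted p under 0.05, 0.0121% of all genes called). Gsta3 had a log2 difference of 1.14 ± 0.38 between the effects at 48 h and 24 h (adjusted p = 0.312). For Hb no member and 0% of all genes were called by edgeR, with no member but 118 genes at an unadjusted p under 0.05, and DESeq2 called no member. In the controls themselves, Gstm7 was lower at 48 h than at 24 h, at 31.5, 38.6 and 51 CPM (lowest, median, highest) against 42.3, 48.9 and 56.01, a fall of 0.31 ± 0.08 (log2, adjusted p = 0.0159). It was the 1 member called there, with 4.5% of all genes.

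Hp alone was the control for the protein part of the complex. As 1 group, the 12 libraries at 24 h had 1 member called (Gsta3, 1.10 ± 0.29, adjusted p = 0.042) with 0.704% of all genes, and the 11 libraries at 48 h had 4 (Gsta3, Gstm1, Gstm2 and Mgst2) with 10.8% of all genes. HbHp at 400 μM against this joint Hp group gave no called member with edgeR or DESeq2 at 24 h or 48 h. At 24 h, 3 members and 1480 genes had an unadjusted p under 0.05, and 0.619% of all genes were called. At 48 h these were 4 members, 2616 genes and 1.44%. Gsta3 was higher with HbHp by 1.08 ± 0.31 at 24 h (adjusted p = 0.0856) and by 0.97 ± 0.30 at 48 h (adjusted p = 0.0687), short of the threshold. Without HbHp 400 μM replicate 4 of 24 h, the first of these became 1.23 (adjusted p = 0.0361), 1 member called.

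The joint Hp group held unlike libraries. At 48 h the 5 libraries of prefix E1 had 4.71, 5.36, 6.77, 17.1 and 10.8 CPM of Gsta3, whereas the 6 of prefix E2 ran from 1.43 to 3.37 (median 2.51), against 0.846 to 2.61 in controls. Gstm1 was at 339.9, 354.3, 376.8, 446.1 and 418.9 CPM in E1 and from 161.2 to 233.4 in E2 (median 184.7), and Gsta4 at 44.6, 42.4, 46.7, 66.9 and 59.7 CPM in E1 and from 24.1 to 29.6 in E2 (median 25.8). The ranges of the prefixes did not overlap in these 3 genes. Nor did they in Mgst2, at 1.91, 2.08, 2.38, 3.82 and 2.11 CPM in E1 and 0.805 to 1.63 in E2. These ranges are CPM without the batch and prefix terms, and prefix itself separated 68% of all genes. How many of all genes had no overlap was not computed, so the ranges are a description only.

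**Figure D4:**
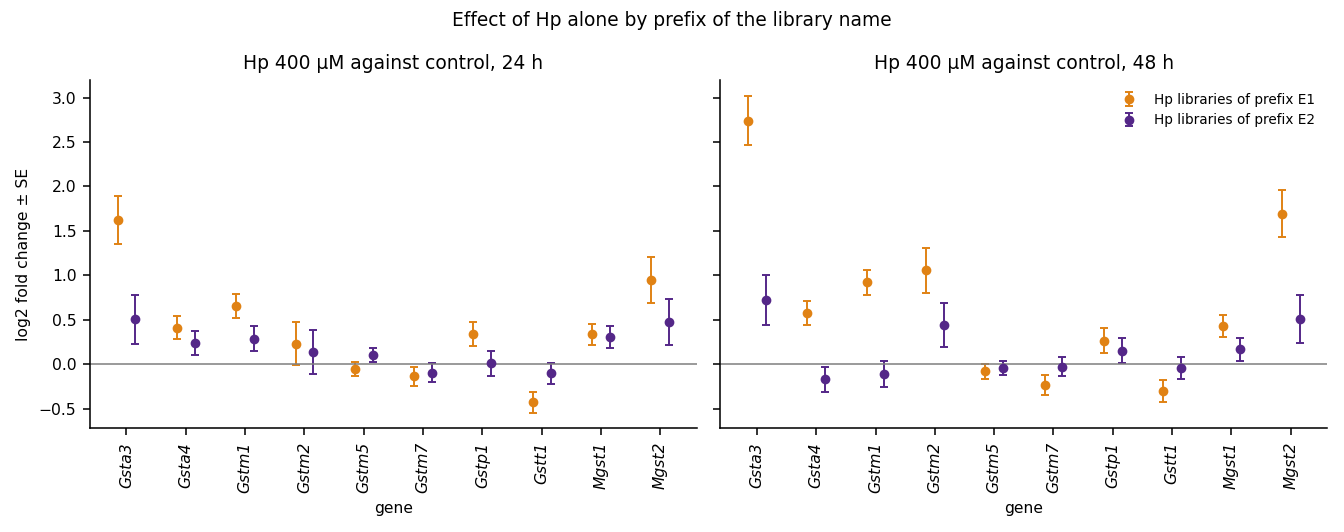
Log2 fold changes ± SE of the 10 transferases for Hp 400 μM against control at 24 h and 48 h. The Hp libraries were split by library-name prefix, and each point is 1 fitted estimate. At 48 h the estimates of Gsta3, Gsta4, Gstm1 and Mgst2 were higher in E1 than in E2.

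With the prefixes as groups of their own, E1 at 48 h had 6 members called, all higher, with 17% of all genes. These were Gsta3, Gsta4, Gstm1, Gstm2, Mgst1 and Mgst2. E2 at 48 h had none (0.273% of all genes, 1 member and 2327 genes at an unadjusted p under 0.05). At 24 h, E1 had 4 called (Gsta3, Gstm1 and Mgst2 higher, Gstt1 lower by 0.43 ± 0.12 on the log2 scale, adjusted p = 0.0359) with 1.77% of all genes. E2 had none at 24 h (0.0304% of all genes, 2 members and 1392 genes at an unadjusted p under 0.05). The split was made after the data had been seen, with edgeR only.

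The effect of Hp against control differed between the prefixes at 48 h in 4 members, where 3.74% of all genes were called. The differences, E1 less E2 on the log2 scale, were 2.02 ± 0.30 for Gsta3 (adjusted p = 2.70e-06), 1.03 ± 0.16 for Gstm1 (adjusted p = 3.47e-06), 1.19 ± 0.29 for Mgst2 (adjusted p = 0.0053) and 0.75 ± 0.15 for Gsta4 (adjusted p = 0.00056). At 24 h no member was called, with Gsta3 at 1.12 ± 0.29 (adjusted p = 0.0604). There 4 members and 1809 genes had an unadjusted p under 0.05, and 0.34% of all genes were called. Microglial markers summed to between 585.8 and 1995 CPM in the E1 libraries of Hp at 48 h and to between 2368 and 3493 in those of E2. The 48 h controls held from 487.2 to 2085 CPM in E1 and 2972 and 3443 in E2. What the prefix stands for is not given in the sources used here, and its part was not tested.

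Against the Hp libraries of its own prefix E2, HbHp at 400 μM was higher in 2 members at 24 h (1.09% of all genes) and in 4 at 48 h (3.2% of all genes). Gsta3 differed by 1.43 ± 0.29 at 24 h (adjusted p = 0.000863) and by 1.87 ± 0.27 at 48 h (adjusted p = 5.89e-07). Gsta4 differed by 0.53 at 24 h (adjusted p = 0.034) and by 0.57 at 48 h (adjusted p = 0.00535). Gstm1 differed by 0.78 ± 0.14 at 48 h (adjusted p = 6.92e-05) and Mgst2 by 0.999 ± 0.257 (adjusted p = 0.0123). With Hp split in this way, HbHp against control kept the calls above except that of Gsta4 for 400 μM at 48 h, which went to 0.39. Gsta3 was then at 1.09 and 2.16 for 200 μM and at 1.93 and 2.59 for 400 μM (24 h and 48 h).

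Prefix itself separated 68% of all genes and 6 of the 10 members in batches 2 and 3, so the members were near the share over all genes. In E2, Gsta3 (log2 difference -0.34 ± 0.13), Gsta4 (-0.40) and Gstm1 (-0.24) were lower than in E1, and Gstm2 (0.51 ± 0.10), Gstt1 (0.31 ± 0.05) and Gstp1 (0.16 ± 0.06) were higher. With the Hp libraries split, Gsta3 was at 0.16 in the opposite direction (adjusted p = 0.296).

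The letter in the library name (M or W in batch 1, M or F later) accorded with the summed Y-linked genes in all 188 libraries. No member was called between the letters in batch 1 by edgeR or DESeq2, where edgeR called 2.71% of all genes. There 2 of the 10 members and 3455 of the 15554 genes tested had an unadjusted p under 0.05. In batches 2 and 3, 5 members were higher in M, with 12.8% of all genes called: Gsta3 by 0.35 ± 0.10 (adjusted p = 0.0147), Gstp1 by 0.22, Gstm7 by 0.14, Mgst1 by 0.11 and Gstm5 by 0.09. Differences between a treatment and control ran from -0.07 to 0.08 for Gstm5 and from -0.20 to 0.13 for Gstm7, on the same log2 scale.

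Across the 15 comparisons of a treatment with control, which share control libraries within each set, Gstm1 was called 12 times, Gsta3 11, Mgst2 8, Gsta4 7, Gstm2 and Gstp1 4 each and Mgst1 3, each time higher. Gstt1 was called once, lower, and its log2 fold change was below 0 in all 15, from -0.35 to -0.02.

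Genes that feed the transferases were also counted. All 5 genes of glutathione synthesis and recycling (Gclc and Gclm, the subunits of the rate-limiting ligase, Gss, Gsr and the cystine importer Slc7a11) rose with heme-albumin at 200 and 400 μM and in all 4 comparisons of HbHp with control. Slc7a11 rose by 1.539 and 1.898 at the 2 heme-albumin doses and by 1.73 and 1.97 with 200 and 400 μM HbHp at 48 h (log2), and Gclm by 0.95, 1.10, 1.47 and 1.67. At lower heme-albumin doses 1 (12.5 μM) and 2 (50 μM) of 5 passed. With hemeHpx none of the 5 passed against control, and 4 of 5 were lower than with heme-albumin. With Hb the counts were 2 and 4 of 5 at 200 and 400 μM, at 24 h and again at 48 h. With Hp as 1 group, 2 of 5 passed at 24 h and 4 of 5 at 48 h. Split by prefix, 4 and 5 of 5 passed in E1 (24 h and 48 h) and 0 of 5 in E2 at either time.

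Of 17 other transferases, 11 were tested in batch 1 and 12 in batches 2 and 3, and few were called against control. Of all genes, at most 29% were called in a comparison with control (heme-albumin at 400 μM). With heme-albumin at 400 μM, Gstp2, which shares stretches with Gstp1 (0.99, adjusted p = 0.00576), and Gsto1 (0.27, adjusted p = 1.19e-05) rose, and Hpgds, the hematopoietic prostaglandin D synthase of microglia, fell by 1.13 on the log2 scale (adjusted p = 1.18e-05). Hpgds was also the 1 gene of this list called at 200 μM. With HbHp at 48 h, Gstp2 and Gsto1 rose at 200 μM and Gsto1 at 400 μM. With Hp at 48 h, Gstp2 (0.78) and Gsto1 (0.24) were called in prefix E1, and no gene of this list in E2. Between hemeHpx and heme-albumin at 200 μM, 25.9% of all genes were called. Among those of this list, Hpgds (0.83), Mgst3 (0.50) and Gstt3 (0.46) were higher with hemeHpx and Gsto1 (-0.13) lower. Of 5 tested exporters, Abcc1, which pumps glutathione conjugates out of cells, rose with heme-albumin (0.42, 0.59 and 0.91 at 50, 200 and 400 μM) and with HbHp (0.37 and 0.54 at 200 μM, 0.77 and 0.82 at 400 μM, for 24 h and 48 h). It also rose with hemeHpx (0.225), with Hb (0.35 at 400 μM and 24 h, 0.33 and 0.38 at 200 and 400 μM and 48 h) and with Hp at 48 h (0.40), where it was called in prefix E1 (0.68) and not in E2. Abcc4 rose with 400 μM heme-albumin (0.40) and with 400 μM HbHp at 24 h (0.62), where Abcc5 also rose (0.32). Against heme-albumin at 200 μM, hemeHpx was lower in Abcc1 (-0.37) and Abcc4 (-0.47) and higher in Abcc5 (0.15). Among the 11 genes of conjugate breakdown, Nat8, which acetylates cysteine conjugates, fell by 0.81 and 0.995 with 200 and 400 μM heme-albumin and by 1.14 and 1.44 with 200 and 400 μM HbHp at 48 h (log2). With Hp at 48 h it fell by 1.12, with a call in prefix E1 (-1.38) and none in E2. Dpep1, a dipeptidase, rose at 48 h with 200 μM HbHp (1.501) and Hp (1.20), the latter with a call in prefix E1 (1.62) and none in E2. Ggt7 rose with 400 μM heme-albumin (0.41) and hemeHpx (0.495), and Acy1 fell with 400 μM HbHp at 48 h (-0.38).

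Genes whose log2 CPM followed a member most closely were ranked by the mean of Pearson's r over the 60 libraries of batch 1 and over the assigned libraries of batches 2 and 3. These correlations are descriptions, since the libraries share treatments, depth and batch. Nearest to Gsta3 were Cat, the catalase gene (r = 0.84 and 0.87), and Srxn1, which reduces oxidized peroxiredoxins (0.83 and 0.86). Gstm1 lay nearest to G6pdx, which makes NADPH (0.92 and 0.73), and to the epoxide hydrolase gene Ephx1 (0.83 and 0.77). Gsta4 lay nearest to Gclc (0.83 and 0.83), and Mgst2 to the biliverdin reductase gene Blvrb (0.76 and 0.81). Gstm2 followed Acvrl1 (0.85 and 0.94) and, nearly as closely, Creg1 (0.84 and 0.91). Gstp1 followed Ppfibp2 (0.69 and 0.91), and Mgst1 followed Akr1c14 (0.79 and 0.70). Gstm5 lay nearest to Uqcrh of the respiratory chain (0.77 and 0.72), Gstm7 to Fkbp1a (0.70 and 0.90) and Gstt1 to the peroxisomal Ech1 (0.66 and 0.64). Between members, Gsta4 and Gstm1 moved together (r = 0.74 and 0.77), as did Gsta3 and Mgst2 (0.70 and 0.69), whereas Gstm1 and Gstm7 had negative values (-0.28 and -0.33).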

How the data were processed

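The authors sequenced TruSeq mRNA libraries and deposited whole-number read counts per Ensembl gene, without normalization. The submitters' processing notes name featureCounts and GRCm39, and the aligner is not given in the sources used here. Everything else was computed from these counts with edgeR 4.0.16 and limma 3.58.1 in R 4.3.3 and with Python 3.11.15. Genes were filtered with filterByExpr (smallest count 10, smallest total count 15), libraries were scaled by TMM, and quasi-likelihood tests were adjusted over all genes tested at 0.05. The 60 libraries of batch 1 were fitted by condition, and those of batches 2 and 3 by condition, batch and prefix. SE was taken as log2 fold change over the root of the F statistic. The models were tested on simulated counts that held no batch or prefix effect, so the handling of those effects was not tested.

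The 10 members, the pathway lists and the tests were chosen with earlier results of these data known. All members were tested in every comparison, and those not named in one did not pass there. From each other list, up to 4 genes with the largest change among those that passed could be named. The 2 nearest genes of a member were those with the largest mean Pearson r among 15331 genes tested in both sets. Positions, lengths and promoters come from GRCm38 tables of RefSeq and the matching annotation.

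The condition of 21 libraries was ambiguous (20 are tagged HbHpx while their titles name haptoglobin), and they entered no comparison. Alternatives were DESeq2 1.42.0, RLE scaling, other filters, a correction for GC content and length (99.86% of genes had both), other terms, a replicate block, subsets of libraries and leaving out single libraries. Fits by prefix and the split of Hp were added after seeing the data. Pairs of libraries from 1 condition and batch all differed by more than counting noise (630 pairs, smallest chi-square per degree of freedom 3.48).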

Additional observations from a re-analysis of the deposited data

Results flagged for a closer look

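A library was set apart where its gap to the nearest other exceeded Dixon's 95% limit in a group of 4 to 10 libraries. This held for 17 of 160 combinations of group and member tested, and chance alone flags about 1 in 20. HbHp 200 μM replicate 1 of 48 h was the lowest of its group in Gstm1 (176.0 CPM, nearest 305.0) and the highest in Gstm5 (87.32, nearest 65.69), Gstt1 (12.66, nearest 8.325) and Mgst1 (105.7, nearest 90.21). Heme-albumin 400 μM replicate 8 was the highest in Gsta4 (76.78, nearest 61.46) and Gstm5 (90.22, nearest 69.24). Hb 200 μM replicate 10 of 24 h was the highest in Gstm7 (78, nearest 52.41) and Gstp1 (548.0, nearest 327.4), and replicate 5 of that group in Gsta4 (58.29, nearest 44.86).

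The remaining cases were 1 member each, in CPM. Gstm2 was highest in heme-albumin 12.5 μM replicate 8 (11.44, nearest 7.114) and in 24 h control replicate 8 of batches 2 and 3 (13.01, nearest 7.992), and Mgst2 in heme-albumin 50 μM replicate 4 (1.899, nearest 1.297). With 400 μM HbHp at 48 h, Gstp1 was highest in replicate 1 (468.4, nearest 344.7) and Mgst1 in replicate 2 (120.7, nearest 79.63). Gstt1 was highest in Hb 200 μM replicate 8 of 48 h (9.282, nearest 7.04) and Gstm7 in Hb 400 μM replicate 3 of 24 h (69.14, nearest 56.77). Gsta4 was lowest in 24 h control replicate 11 of batches 2 and 3 (20.72, nearest 29.12).

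The effect of Hp at 48 h differed between prefixes E1 and E2 by the test of the difference itself in Gsta3 (2.022 on the log2 scale), Mgst2 (1.185), Gstm1 (1.03) and Gsta4 (0.748). Among the 21 libraries of ambiguous condition, 13 of 21 lay above the highest control of batches 2 and 3 for Gsta3, and 13 of 21 for Gstm1.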

How the results depend on the processing

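Counts here are members called, as reported and then under the alternative, and the cause of each change was not tested unless stated. DESeq2 moved heme-albumin 12.5 μM from 0 to 1, 50 μM from 1 to 2, Hp at 24 h from 1 to 2 and HbHp against Hb at 48 h from 2 to 1. The GC and length correction moved heme-albumin 50 μM from 1 to 2 and hemeHpx from 3 to 0. A minimum of 10 counts in every library took heme-albumin 200 μM from 5 to 3, since fewer members were tested. No filter took hemeHpx from 3 to 1 and Hb 200 μM at 48 h from 2 to 1. With batch as the only term, Hp at 24 h and Hb 200 μM at 48 h both went to 0. With no term, Hp at 24 h went to 2, Hb 200 μM at 48 h to 0, and HbHp against Hb from 0 to 1 at 24 h and from 2 to 5 at 48 h.

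With Hp split by prefix, Hb 400 μM at 24 h went from 1 to 2. Hp of E1 went from 1 to 4 at 24 h. Hp of E2 went to 0 at both times (from 1 and 4), and HbHp 400 μM against it from 0 to 2 at 24 h and from 0 to 4 at 48 h. Here 2 values reversed: Gstm1 with Hp of E2 at 48 h was -0.11 on the log2 scale (adjusted p = 0.759) and Gsta3 between prefixes 0.16 (adjusted p = 0.296). Within E1, Hb 400 μM at 24 h went to 0, Hp at 24 h to 3, Hb 200 μM at 48 h to 1 and the controls between times to 0. Within E2, Hb 400 μM went to 2 at 24 h, HbHp 200 μM from 5 to 1 and HbHp 400 μM from 4 to 2 at 24 h, Hp to 0 at both times, Hb 200 μM at 48 h to 0, HbHp against Hb at 48 h to 1, HbHp 400 μM against Hp to 2 at 24 h and 4 at 48 h, and the controls to 0.

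The replicate block (the code of the library name) moved heme-albumin 50 μM from 1 to 3, Hb 400 μM at 24 h to 2, Hp at 24 h to 0 and HbHp 400 μM against Hp at 48 h to 1. The block with the GC correction gave 2 for heme-albumin 50 μM and 1 for hemeHpx. Libraries with the same code (prefix, letter and number) were not taken as paired in the main fits. Their deviations had a median r of 0.19 in batch 1 (94 of 169 pairs over 0.1) and 0.06 later (124 of 291). For different codes the medians were -0.01 (517 of 1331 pairs over 0.1) and -0.02 (696 of 2247). Libraries of the same code were thus somewhat more alike, and only the fits with the block take this into account. Leaving out single libraries gave 4 to 5 called for HbHp 200 μM and for HbHp 400 μM at 24 h, 7 to 8 and 5 to 6 at 48 h, and 0 to 1 at 24 h and 0 to 0 at 48 h for HbHp 400 μM against Hp.

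Of 2592 refits of a single member, 2461 kept direction and call, 59 lost the call, 70 gained one and 2 reversed. Depth limits Gsta3 and Mgst2 most, with as few as 9 and 4 reads in a control library, and groups of 4 or 5 HbHp libraries limit the 400 μM comparisons.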

Other observations

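The 21 libraries of ambiguous condition are given as values only. Gsta3 ran from 2.37 to 7.58 CPM (median 3.13), against a highest control of 3.07, and Gstm1 from 177.2 to 354.4 CPM (median 253.4), against a highest control of 247.9. Mgst2 ran from 0.405 to 2.04 CPM (median 1.30), Gsta4 from 24.7 to 49.7 (median 34.2) and Gstm2 from 4.30 to 14.3 (median 8.49). Gstt1 ran from 3.44 to 8.26 CPM (median 5.14).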
